A study of Bos taurus with 27 samples.

Results

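Leukocyte marker transcripts were examined in 27 pools of in vitro produced bovine blastocysts, and the 9 marker-high pools were compared with the 9 marker-low pools. The groups were selected on measured values and are not treatments. For each pool the abundance of PTPRC, CD3E, CD79A, CD14 and CD68 was summed as CPM (the count of a gene per 1000000 counts of its pool). The 9 pools with the highest sums formed the high group, the 9 with the lowest sums formed the low group, and the 9 between them were left out. The comparison therefore used 18 of 27 pools. Each other gene that reached 1 CPM in 12 or more pools entered the test, and the question was which tissue or process the difference between the groups resembles.

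Each pool held RNA of 2 bovine (Bos taurus) expanding or expanded blastocysts graded 7 for stage and 1 for quality, that is, embryos with a fluid-filled cavity. Oocytes came from abattoir ovaries and were matured in medium that held preovulatory follicular fluid from follicles of greater or lesser maturity, fertilized in vitro with sperm of the same bull, freed of cumulus cells and cultured. All pools shared these steps. The 2 blastocysts of a pool came from the same treatment and replicate, but the sample labels name neither for a given pool. Neither was a covariate, and the part of either in the marker groups was not tested. Pools were treated as separate samples, and p-values measure only the spread among pools.

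A blastocyst consists of the trophectoderm, the outer epithelium that forms the placenta, and an inner cell mass that gives the epiblast and the hypoblast. It has not yet formed blood cells, which arise later in development. PTPRC (CD45) is a phosphatase on the surface of all nucleated blood cells. CD3E belongs to the T cell receptor complex, CD79A to the B cell receptor complex, and CD14 is the monocyte receptor for bacterial lipopolysaccharide. CD68 is a glycoprotein of lysosomes, abundant in macrophages and present at lower levels in many other cells. In a bulk library of 2 embryos, more cells of a type and more RNA per cell cannot be told apart.

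Total counts ran from 10517606 to 44253564 over the 27 pools. They were between 11482479 and 27366102 in the high pools, with a median of 16333771, and between 10517606 and 43681792 in the low pools, with a median of 29454142. The difference in total count did not pass a two-sided exact permutation test (n = 9 and 9, p = 0.0615, adjusted p = 0.184 over 6 properties). At these totals 1 CPM was between 10.5 and 44.3 counts, and 3 counts were between 0.0678 and 0.285 CPM, a limit that covers counting error only. The share of counts in the 100 most counted genes was between 26.8% and 29.2% in the high pools and between 27.3% and 32.0% in the low pools (exact permutation test, p = 0.0426, adjusted p = 0.184). The number of genes detected (exact permutation p = 0.223), Y-linked abundance (p = 0.556), interferon tau abundance (p = 0.230) and the share of counts from the mitochondrial genome (p = 0.745) did not pass this test either. The part of total count and of these shares in the gene differences was not tested, except by the model with total count described with the result it touches.

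The marker sum was 18.3, 14.4, 13.8, 12.2, 11.1, 10.999, 9.86, 9.74 and 9.03 CPM in the high pools 9, 32, 1, 25, 35, 21, 33, 5 and 19. It was 6.53, 5.72, 5.32, 5.22, 5.13, 4.97, 4.54, 4.49 and 2.75 CPM in the low pools 15, 24, 26, 31, 28, 45, 22, 42 and 14. The values fell along a continuous range without a gap at either limit. The last high pool (pool 19) had 9.03 CPM and the pool just outside (pool 12) had 8.81 CPM, while the last middle pool (pool 23) had 6.82 CPM and the first low pool (pool 15) had 6.53 CPM. The sums rested on between 54 and 309 counts per pool, with a median of 176.

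**Figure D1:**
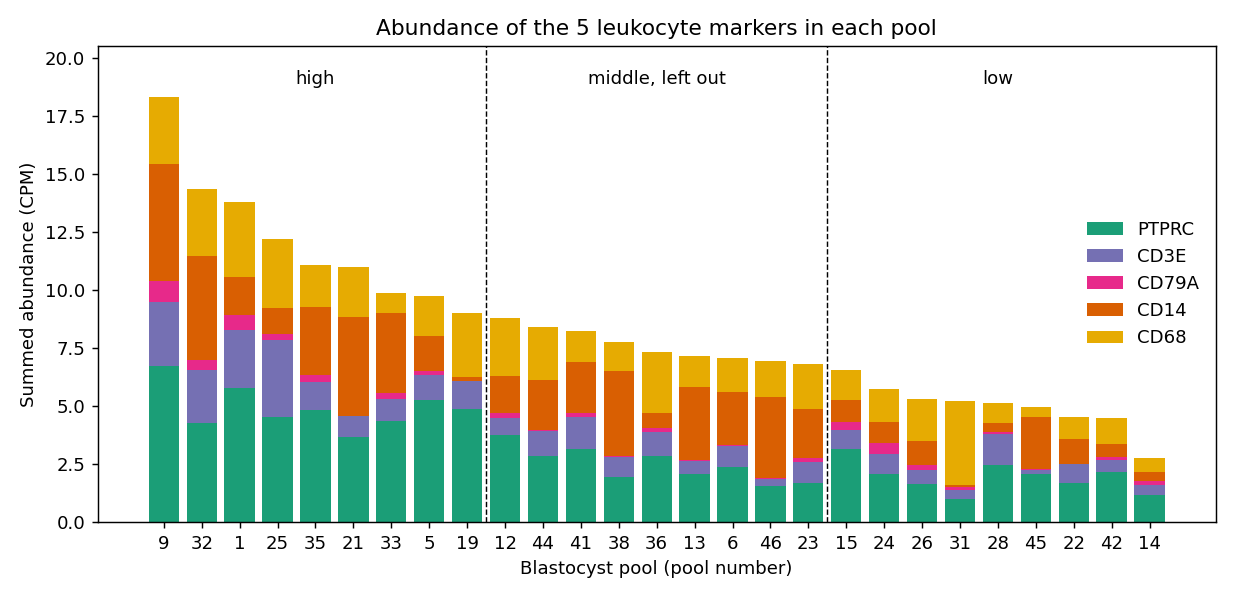
Summed abundance (CPM, y axis) of the 5 markers in each of the 27 blastocyst pools (x axis, pool number), stacked by marker and ordered from the highest to the lowest sum. The sum runs from 18.3 CPM in pool 9 to 2.75 CPM in pool 14, and no step separates the high, middle and low pools.

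The markers did not contribute in the same proportion in each pool. PTPRC, on chromosome 16 from 77540603 to 77670102 of ARS-UCD2.0, was between 3.65 and 6.75 CPM in the high pools and between 1.01 and 3.15 CPM in the low pools. It was 40.6% of the sum in the high pools and 39.0% in the low pools, and it was the only marker whose groups did not overlap. CD3E (chromosome 15, 29004581 to 29015196) was between 0.914 and 3.31 CPM in the high pools and between 0.144 and 1.33 CPM in the low pools, and it was highest in pools 25, 9, 1 and 32. CD14 (chromosome 7, 51762889 to 51765832) ranged from 0.188 to 5.03 CPM in the high pools and from 0.0652 to 2.23 CPM in the low pools. Pool 19 was high with little CD14 (0.188 CPM), and pools 9, 32 and 21 each had more than 4 CPM.

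CD68 (chromosome 19, 27312058 to 27314114) overlapped between the groups, with 0.857 to 3.21 CPM in the high pools and 0.432 to 3.62 CPM in the low pools. The highest CD68 value of all pools belonged to a low pool, pool 31. CD79A (chromosome 18, 51344685 to 51348374) did not reach 1 CPM in any pool. It was between 0 and 0.895 CPM in the high pools and between 0.0332 and 0.450 CPM in the low pools, and its highest count in a pool was 14. These values chose the groups and were given no test. Of the 5 markers, 3 met the abundance filter (PTPRC, CD14 and CD68), and all were kept out of the test.

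Of the 12307 genes tested with edgeR's quasi-likelihood test, 1 gene rose in the high pools at a Benjamini-Hochberg adjusted p of 0.05 (0.00813% of the genes tested) and 0 genes fell (0%). At an unadjusted p of 0.05, 507 genes were higher (4.12%) and 509 were lower (4.14%). Every high pool was above every low pool for 20 genes (0.163%), and every high pool was below every low pool for 0 genes (0%). DESeq2 on the same pools called 50 genes higher (0.406%) and 15 lower (0.122%). When the log2 marker sum was used as a continuous variable over all 27 pools, edgeR called 53 genes higher (0.431%) and 9 lower (0.0731%). That model and the comparison of groups share the 18 pools and are not independent of each other.

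The gene that rose was LOC508666, a protein-coding gene to which the RefSeq table used here gives no other symbol, on chromosome 19 from 14445403 to 14450579. It lies between LOC504773 and CCL14 in a stretch of CC chemokine genes, whose products attract leukocytes. LOC508666 ranged from 39.1 to 79.0 CPM in the high pools (median 45.4), between 16.4 and 49.8 CPM in the middle pools and between 11.3 and 30.1 CPM in the low pools (median 22.2). Every high pool was above every low pool, and the log2 fold change was 1.23 ± 0.19 (SE, n = 9 and 9, edgeR adjusted p = 0.0171). Its neighbours within 60000 bases were far less abundant. CCL14 had no counts. In the high and low pools CCL5 had at most 0.784 and 0.475 CPM, and CCL16 at most 1.76 and 6.68 CPM. In the same order LOC504773 had at most 0.697 and 0.290 CPM, with 7 of 9 high pools above all low pools. LOC100297044 had at most 2.00 and 0.666 CPM, and LOC616364 at most 0.252 and 0.145 CPM. These neighbours were chosen after the call was seen, and none met the abundance filter.

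The call of LOC508666 was close to the threshold. With total count as a covariate the log2 fold change was 1.14 and the adjusted p was 0.180, with no gene called (612 higher and 516 lower at an unadjusted p of 0.05). It was also lost when pool 1, 5, 14, 22 or 26 was left out (adjusted p from 0.0519 to 0.0617), and 0 genes were then called, with 437 to 579 higher and 439 to 629 lower at an unadjusted p of 0.05. When PTPRC was taken out of the sum its log2 fold change between the new groups was 0.85 (adjusted p = 0.605). With DESeq2 the adjusted p of LOC508666 was 2.4e-06, and in the continuous model 0.00142.

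The 12 genes with symbols and the smallest p among those higher in the high pools were CTSS, EXO5, S100A12, LCP1, F13A1, LYZ, BOLA, GMFG, BOLA-DRA, CD52, PF4 and CORO1A. Most are known from blood cells. None passed in the comparison of groups (edgeR adjusted p from 0.0647 to 0.109), all 12 passed in DESeq2, and all but S100A12 and LCP1 passed in the continuous model. With total count as a covariate none of the 12 passed (edgeR adjusted p from 0.216 to 0.281). Without PTPRC in the sum none passed either (edgeR adjusted p from 0.605 to 0.754). Most alternatives left out a single pool and shared the others. Each of the 12 genes kept a positive log2 fold change under every alternative that gave it a value. They are given below by the cells and functions they are known for.

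Among genes of monocytes and granulocytes, cathepsin S (CTSS, the lysosomal protease that trims the invariant chain of MHC class II) was between 3.51 and 7.64 CPM in the high pools (median 5.64) and between 1.46 and 2.38 CPM in the low pools (median 1.90). The groups did not overlap, and the log2 fold change was 1.41 ± 0.25 (edgeR adjusted p = 0.0647). Lysozyme (LYZ) was between 3.14 and 8.27 CPM in the high pools and between 0.847 and 2.63 CPM in the low pools, again without overlap (1.44 ± 0.28, adjusted p = 0.0647). S100A12, a calcium-binding protein of neutrophils, had medians of 73.6 and 32.0 CPM in the high and low pools, and its groups were just apart, at 55.1 CPM in pool 32 and 54.7 CPM in pool 15 (1.29 ± 0.25).

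S100A8 and S100A9, which form the calprotectin dimer of the same cells, lie beside S100A12 on chromosome 3 between 17085831 and 17117829 and were named after their values were seen. S100A8 had a median of 21.9 CPM in the high pools and 8.49 CPM in the low pools (log2 fold change 1.33 ± 0.30, adjusted p = 0.118), and S100A9 had medians of 18.5 and 7.51 CPM (1.15 ± 0.29, adjusted p = 0.171). All 3 genes were highest in pool 5 and lowest among the high pools in pool 32, although pool 32 had the second highest marker sum. All 3 were lowest in pool 31 among the low pools. F13A1, the A subunit of clotting factor XIII made by monocytes and platelets, was between 2.38 and 6.51 CPM in the high pools and between 0.782 and 2.08 CPM in the low pools, without overlap (1.55 ± 0.30, adjusted p = 0.0647).

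Genes of the leukocyte cytoskeleton and surface followed the same order. LCP1 (L-plastin, which bundles actin in leukocytes) was between 4.65 and 7.65 CPM in the high pools and between 0.880 and 3.63 CPM in the low pools, without overlap (1.33 ± 0.26, adjusted p = 0.0647). CORO1A (coronin 1A, an actin regulator of leukocytes) had medians of 8.99 and 3.75 CPM, and 8 of 9 high pools were above all low pools (1.18 ± 0.26, adjusted p = 0.109). GMFG, which regulates actin branching and is most abundant in blood cells, had medians of 10.03 and 4.94 CPM (1.20 ± 0.24). CD52, a small glycoprotein anchored to the surface of lymphocytes, ranged from 10.96 to 42.3 CPM in the high pools and from 6.98 to 16.2 CPM in the low pools (1.15 ± 0.24, adjusted p = 0.0846). The pool that overlapped with the low group was pool 21 for CORO1A and CD52.

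MHC transcripts were among the 12 as well. BOLA, a bovine MHC class I heavy chain on chromosome 23, was between 38.3 and 90.0 CPM in the high pools and between 17.5 and 37.4 CPM in the low pools (0.96 ± 0.19, adjusted p = 0.0647). BOLA-DRA, the class II alpha chain found on antigen-presenting cells, had medians of 9.36 and 4.49 CPM (1.26 ± 0.26, adjusted p = 0.0846). Other class II genes were named after their values were seen. BOLA-DRB3 had medians of 15.0 and 6.55 CPM with overlapping groups (0.56 ± 0.32, edgeR adjusted p = 0.685). LOC100848815, with a DQA synonym, had medians of 4.79 and 1.99 CPM, also overlapping (1.20 ± 0.41, edgeR adjusted p = 0.398). MHC genes are polymorphic and have near-identical copies, so their counts may be split among copies and are uncertain. Of 18 tested genes of antigen presentation, 4 were higher and 2 lower at an unadjusted p of 0.05. Over all genes tested these shares were 4.12% and 4.14%. The median log2 fold change of the 18 genes was 0.47, beside 0.01 over all genes tested. The class I light chain B2M had medians of 585 and 457 CPM with overlapping groups (0.18 ± 0.23, adjusted p = 0.872), and CALR, a chaperone that loads class I, had medians of 407 and 472 CPM (-0.32 ± 0.10, adjusted p = 0.355).

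PF4, a chemokine of platelet granules, was between 8.93 and 16.9 CPM in the high pools and between 1.96 and 9.93 CPM in the low pools (1.07 ± 0.23, adjusted p = 0.108). Of the 12 genes only EXO5, an exonuclease that acts on single-stranded DNA, is not known for blood cells. It ranged from 39.7 to 129 CPM in the high pools and from 18.7 to 50.2 CPM in the low pools (1.13 ± 0.21, adjusted p = 0.0647).

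**Figure D2:**
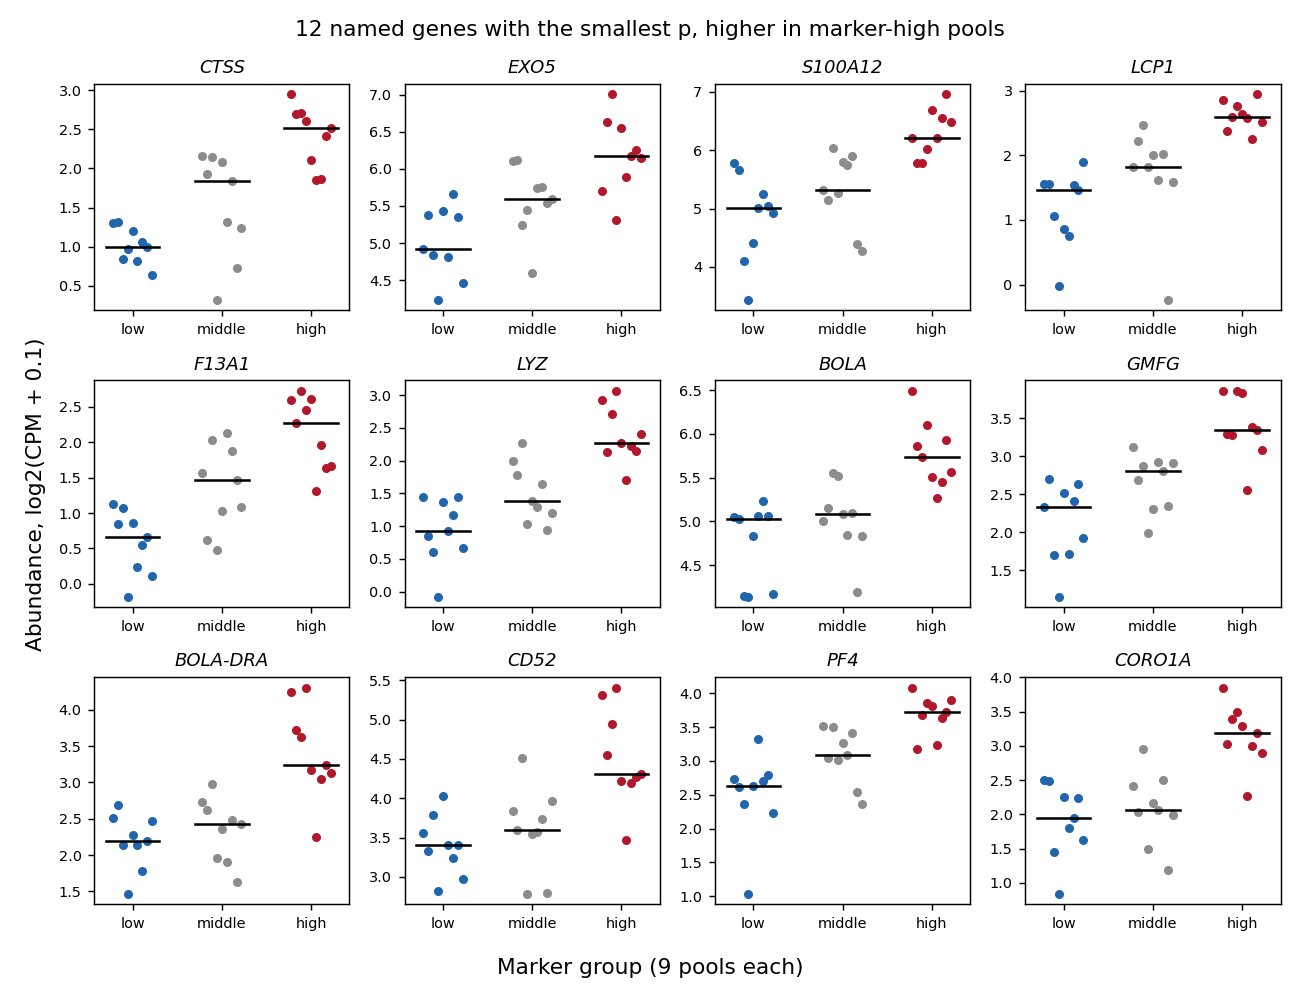
Abundance, as log2(CPM + 0.1) on the y axis, of the 12 named genes with the smallest p among those higher in marker-high pools. Each point is a pool (9 per group on the x axis) and lines are medians, and for 6 genes (CTSS, S100A12, LCP1, F13A1, LYZ and BOLA) no low pool reaches the lowest high pool.

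Individual pools differed in which of these genes they held. Over LOC508666 and the 12 genes, pool 25 was the highest of the high pools for 5 and pool 9 for 4, while pool 21 was the lowest for 8 of 13. Pool 25 led for LYZ, GMFG, BOLA-DRA and CD52, and pool 5 led for S100A12 and LCP1. Among the low pools, pool 31 was the lowest for 12 of 13 genes, although its marker sum of 5.22 CPM was not the lowest. Most of that sum, 3.62 CPM, was CD68. Among the low pools it also had the fewest genes detected (15491). Its share of counts in the 100 most counted genes (32.0%) was the highest of the low pools. Whether pool 31 was the lowest as often over all genes tested was not tested, so its place is not specific to these 13 genes as far as is known here. Leaving out pool 21 raised the genes called higher from 1 to 15, leaving out pool 15 raised them to 4 and leaving out pool 25 to 2, and leaving out pool 31 kept the count at 1.

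Among the 20 genes without overlap, LOC404103, HBB, LOC786352, SYK, LCP2, MFNG, LOC100848940, CLEC2D, FCN1, C10H15orf48, CCNYL1, LNPEP and SLAMF6 remained beside those given above. They were listed because their groups did not overlap. LCP2 (SLP-76), an adaptor of the T cell receptor, was between 1.17 and 3.31 CPM in the high pools and between 0.326 and 1.15 CPM in the low pools. SYK, the kinase that signals from the B cell receptor and Fc receptors, was between 1.28 and 3.90 CPM in the high pools and between 0.359 and 1.06 CPM in the low pools. FCN1 (ficolin 1, a lectin of monocytes) was between 1.61 and 3.12 CPM and between 0.293 and 1.51 CPM, in the same order. SLAMF6, a receptor of lymphocytes, was between 1.22 and 2.05 CPM and between 0.456 and 1.02 CPM. In the low pools LCP2, SYK, FCN1 and SLAMF6 had medians of 0.829, 0.792, 0.951 and 0.728 CPM, below the filter of 1 CPM. They could enter the test mainly through the high pools, so their lack of overlap is description only. CCNYL1 and LNPEP are not specific to leukocytes. CCNYL1 was barely apart, with 27.8 CPM in the lowest high pool and 27.6 CPM in the highest low pool.

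Blood cell genes that played no part in choosing the pools were then described as lists. Of 24 pan-leukocyte genes 17 passed the abundance filter, and 10 of the 17 were higher and 0 lower at an unadjusted p of 0.05, beside 4.12% and 4.14% of all genes tested. Their median log2 fold change was 0.76, beside 0.01 over all genes tested. The same shares over all genes stand beside every list count at this threshold below. Of 27 genes of monocytes and macrophages 10 were tested, and 7 were higher and 0 lower (median 1.18). Of 14 B lymphocyte genes 3 were tested, and all 3 were higher (median 0.83). Of 20 T and NK lymphocyte genes 7 were tested, and 2 were higher and 0 lower (median 0.59). The T and NK median was 0.11 in the continuous model, 0.05 when pools were ranked on PTPRC alone and -0.02 when CD14 was left out of the sum. Without PTPRC in the sum the pan-leukocyte median was 0.39 and that of monocytes and macrophages 0.59. A gene could pass the filter through the pools in which it is high, so these counts describe the tested genes and not the full lists.

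The members with the highest abundance in the pan-leukocyte list were CD48 and SRGN. CD48, an adhesion molecule of leukocytes, ranged from 222 to 522 CPM in the high pools and from 188 to 389 CPM in the low pools (0.41 ± 0.15, adjusted p = 0.439), and it made up most of the summed abundance of the list. SRGN (serglycin, the proteoglycan of secretory granules) ranged from 38.8 to 71.9 CPM in the high pools and from 8.96 to 47.4 CPM in the low pools (0.90 ± 0.23, adjusted p = 0.171). Both were present in all pools, including the low ones.

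The T cell kinases ZAP70 and LCK were the T lymphocyte genes with the highest abundance and showed no separation. ZAP70 had medians of 64.1 and 49.4 CPM in the high and low pools (0.40 ± 0.22, adjusted p = 0.670), and LCK had medians of 48.4 and 42.0 CPM (0.04 ± 0.29, adjusted p = 0.984). The 2 T lymphocyte genes at an unadjusted p of 0.05, named after their values were seen, were CD3G and the homing receptor CCR7. CD3G, which lies in the same receptor complex as CD3E, was between 1.21 and 5.64 CPM in the high pools and between 0.554 and 2.03 CPM in the low pools (1.19 ± 0.40, adjusted p = 0.398). It passed in the continuous model (adjusted p = 0.0157). CD8B, a chain of the co-receptor of cytotoxic T cells, was also named after its values were seen and lay in the other direction. It ranged from 0.567 to 16.7 CPM in the high pools and from 4.11 to 12.8 CPM in the low pools, and 7 of 9 high pools were below all low pools (-1.04 ± 0.56, adjusted p = 0.658).

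Of the B lymphocyte genes, JCHAIN, which joins immunoglobulin units, had medians of 6.11 and 3.73 CPM, and 7 of 9 high pools were above all low pools (0.87 ± 0.24, adjusted p = 0.238). MS4A1 (CD20) did not meet the abundance filter and was named after its values were seen. It was between 0.840 and 3.44 CPM in the high pools and between 0.306 and 1.05 CPM in the low pools. Pool 9 had the highest value of all high pools for JCHAIN, MS4A1 and CD79A.

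Several markers that define these cells had few counts in both groups and did not meet the abundance filter. CD4 was at most 0.367 CPM in the high pools (median 0.259) and 0.153 CPM in the low pools (median 0.0679), with 7 of 9 high pools above all low pools and at most 6 counts in a high pool. RAC2, a GTPase of blood cells, was at most 0.435 and 0.353 CPM. LAPTM5, a lysosomal protein of leukocytes, was at most 0.138 and 0.0916 CPM. CD163 and C1QA, of tissue macrophages, were at most 0.282 and 0.757 CPM in the high pools and at most 1.16 and 0.618 CPM in the low pools, where these highest values were 24 and 27 counts. These genes were named after their values were seen. Of the genes that did pass, FCGR2B, an inhibitory Fc receptor of B cells and monocytes, had medians of 33.1 and 31.9 CPM (0.19 ± 0.30, adjusted p = 0.896). SPI1 (PU.1), the transcription factor of myeloid cells, had medians of 2.12 and 1.26 CPM (0.37 ± 0.35, adjusted p = 0.820).

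**Figure D3:**
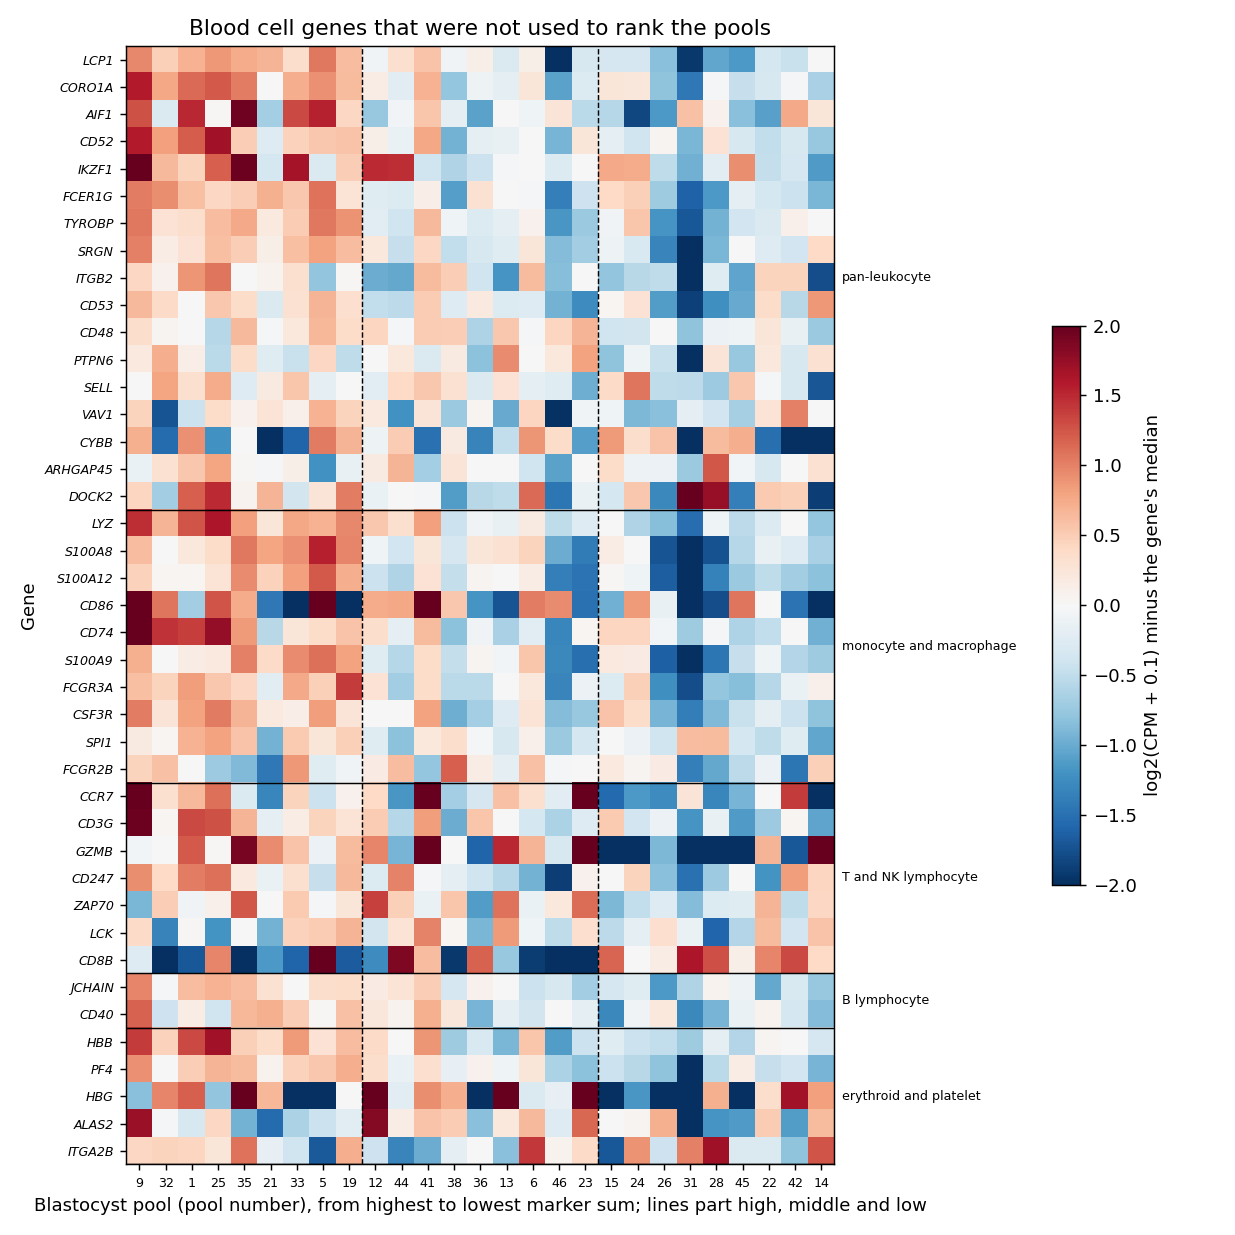
Tested blood cell genes (rows, grouped by list, 1 gene left out) in the 27 pools (x axis, pool number, from the highest to the lowest marker sum), none of which was used to rank the pools. Colour shows log2(CPM + 0.1) minus the median of the gene over all pools, and dashed lines part the 9 high, 9 middle and 9 low pools. Most monocyte genes are above their median in high pools and below it in low pools, with pool 31 the palest or bluest for many, whereas LCK and FCGR2B show no such order and CD8B is below every low pool in 7 of 9 high pools.

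The GIMAP genes encode GTPases of lymphocytes, and 9 genes between positions 112898166 and 113287210 of chromosome 4 were tested. This stretch was chosen after its values were seen. LOC512867 and LOC768255 lie in it but carry no synonym in RefSeq. All 9 had a positive log2 fold change (0.23 to 1.61, median 1.20), as did 52.0% of all genes tested. At an unadjusted p of 0.05, 7 were higher, beside 4.12% of all genes tested. The continuous model called 6 of them higher, beside 0.431% of all genes tested. In the low pools LOC614871, LOC530031 and GIMAP6 had medians of 0.643, 0.881 and 0.916 CPM, below the filter of 1 CPM. Such genes could pass the filter mainly through the high pools, so the signs and counts of this stretch are description only. LOC530031, named GIMAP7 among its synonyms in RefSeq, was between 1.13 and 4.79 CPM in the high pools and between 0.475 and 1.16 CPM in the low pools (1.61 ± 0.36, adjusted p = 0.113). Another 3 genes in the stretch carry the same synonym, so reads could be split among near-identical copies and their values are uncertain.

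The T cell receptor genes behaved likewise. LOC509513 carries the synonym TCRB on chromosome 4 and was between 1.17 and 5.83 CPM in the high pools and between 0.679 and 2.08 CPM in the low pools (1.20 ± 0.36, adjusted p = 0.299). LOC100336282 spans 22263115 to 23352969 of chromosome 10, and LOC101908015, annotated there as a constant region, overlaps it. They had medians of 4.35 and 4.47 CPM in the high pools and 1.71 and 2.12 CPM in the low pools. The counts of overlapping genes cannot be told apart with certainty. LOC524810, with an immunoglobulin heavy chain synonym, had medians of 11.9 and 5.23 CPM (1.23 ± 0.25, adjusted p = 0.0647). All of these and of the genes in the GIMAP stretch, except GIMAP1, GIMAP4 and LOC512867, passed in the continuous model. All were named after their values were seen.

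The continuous model also called surface and signalling genes of leukocytes that were named after their values were seen. CXCR4, the receptor for the chemokine CXCL12, had medians of 2.57 and 0.920 CPM in the high and low pools (adjusted p in the continuous model 0.0381). CSF3R, the receptor for granulocyte colony-stimulating factor, had medians of 8.63 and 3.89 CPM (0.0381). CD74, the invariant chain of MHC class II, had medians of 7.56 and 3.98 CPM and reached 17.6 CPM in pool 9 (0.00271). LTB (lymphotoxin beta) had medians of 8.23 and 4.25 CPM (0.00271). Of the 53 genes called higher in that model, 7 belonged to the 4 leukocyte lists, which hold 37 of the 12307 genes tested.

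Red blood cell and platelet genes gave a mixed picture. Of 5 tested genes 2 were higher at an unadjusted p of 0.05 (PF4 and HBB), and the median log2 fold change was 0.46. HBB, the adult beta globin, was between 2.97 and 8.01 CPM in the high pools and between 1.43 and 2.52 CPM in the low pools, without overlap (1.20 ± 0.28, adjusted p = 0.125). The alpha globin genes HBA and HBA1 reached at most 0.252 and 0.551 CPM in the high pools and 0.0332 and 0.136 CPM in the low pools. GYPB and SLC4A1, membrane proteins of red blood cells, had no counts in any pool. HBG, a globin of fetal type, overlapped fully, with 0.122 to 18.2 CPM in the high pools, 0 to 13.9 CPM in the low pools and up to 333 CPM in the middle pools (0.46 ± 0.88, adjusted p = 0.921).

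Other cells that can accompany an in vitro produced embryo were considered by their own lists. Of 9 tested cumulus and granulosa genes, 2 were higher at an unadjusted p of 0.05, and the median log2 fold change was -0.05. SERPINE2 had medians of 180 and 171 CPM (-0.02 ± 0.14, adjusted p = 0.979). HSD3B1, an enzyme of steroid synthesis, ranged from 21.9 to 517 CPM in the high pools and from 19.9 to 185 CPM in the low pools (1.10 ± 0.52, adjusted p = 0.603), with its highest value in pool 9. Of 4 tested sperm genes 1 was higher and 1 lower, and of 6 fibroblast and endothelial genes 0 were higher or lower. ACTA2, of smooth muscle and fibroblasts, had medians of 200.5 and 190.4 CPM (0.40 ± 0.31, adjusted p = 0.761), and PECAM1, of endothelium and leukocytes, had 84.0 and 72.6 CPM (0.24 ± 0.17, adjusted p = 0.730). The summed abundance of the cumulus list was between 242 and 719 CPM in the high pools and between 233 and 440 CPM in the low pools, and its part in the gene differences was not tested.

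CD68 and CTSS are lysosomal proteins, so lysosomal genes were counted separately. Of 40 tested lysosome genes 2 were higher and 1 lower at an unadjusted p of 0.05, and the median log2 fold change was -0.03. LAMP2, a membrane protein of lysosomes, ranged from 1005 to 2179 CPM in the high pools and from 866 to 1703 CPM in the low pools (0.29 ± 0.15, adjusted p = 0.651). The protease CTSL had medians of 891 and 760.4 CPM (0.27 ± 0.17, adjusted p = 0.701). Of 16 subunits of the vacuolar ATPase, the proton pump that acidifies lysosomes, 2 were higher and 0 lower (median 0.04). Apart from CTSS, the lysosome list stayed near the median of all genes.

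Genes of the embryo's own lineages were counted next. Of 30 tested trophectoderm genes 1 was higher and 4 lower at an unadjusted p of 0.05, with a median log2 fold change of -0.11. The keratins KRT8 and KRT18, the filaments of this epithelium, had medians of 17442 and 7927 CPM in the high pools and 21019 and 9010.2 CPM in the low pools, with overlapping groups (KRT8 -0.27 ± 0.12, adjusted p = 0.537). GATA3, a transcription factor of the trophectoderm, was named after its values were seen. It ranged from 91.3 to 143 CPM in the high pools and from 105 to 238 CPM in the low pools (-0.43 ± 0.14, adjusted p = 0.344), and it was 1 of the 9 genes that fell with the marker sum in the continuous model (adjusted p = 0.0450).

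Of 16 tested epiblast genes 0 were higher and 3 were lower at an unadjusted p of 0.05, and the median log2 fold change was 0.02. POU5F1 (OCT4) had medians of 418 and 384 CPM (0.19 ± 0.24, adjusted p = 0.870), and ZFP42 had 389 and 358 CPM (0.10 ± 0.19, adjusted p = 0.920). NANOG, a pluripotency factor named after its values were seen, ranged from 15.3 to 90.7 CPM in the high pools and from 16.7 to 133 CPM in the low pools (-1.05 ± 0.38, adjusted p = 0.426). Of 18 hypoblast genes 2 were higher and 1 lower (median -0.03). CTSV, a cathepsin in that list, had medians of 1950.0 and 1486 CPM (0.35 ± 0.10, adjusted p = 0.249), and APOA1, an apolipoprotein of the hypoblast, had 735 and 953 CPM (-0.31 ± 0.38, adjusted p = 0.865). IFNT3, the interferon tau by which the trophectoderm signals pregnancy, ranged from 12.3 to 580.1 CPM in the high pools and from 8.37 to 264 CPM in the low pools (0.97 ± 0.70, adjusted p = 0.740). Without pool 9 its log2 fold change was 0.11.

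Response programmes were counted in the same way. Of 21 tested genes of p53 and apoptosis, 8 were higher and 0 lower at an unadjusted p of 0.05, beside 4.12% and 4.14% of all genes tested. Of the 21 genes, 20 had a positive log2 fold change (median 0.39), beside 52.0% of all genes tested. CCNG1 (cyclin G1, a p53 target) ranged from 343 to 689 CPM in the high pools and from 237 to 470 CPM in the low pools (0.59 ± 0.15, adjusted p = 0.159), and it passed in DESeq2 (adjusted p = 0.0408). MCL1, which holds back apoptosis and is widely expressed, ranged from 318 to 456 CPM and from 255 to 336 CPM in the same order (0.29 ± 0.08, adjusted p = 0.249). MDM2, the ligase that degrades p53, and the death receptor FAS were named after their values were seen. MDM2 had medians of 62.7 and 39.9 CPM (0.80 ± 0.29, adjusted p = 0.426), and FAS, which leukocytes also carry, had medians of 6.08 and 2.95 CPM (1.09 ± 0.43, adjusted p = 0.473). CDKN1A, the best known p53 target, had medians of 15.9 and 11.1 CPM (0.20 ± 0.29, adjusted p = 0.889).

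Of 21 interferon response genes 3 were higher and 0 lower at an unadjusted p of 0.05, with a median log2 fold change of 0.47. SAMHD1, which degrades nucleotides needed by viruses, had medians of 73.6 and 47.9 CPM (0.37 ± 0.18, adjusted p = 0.604), and IRF7, a transcription factor of the interferon response, had 40.4 and 33.2 CPM (0.09 ± 0.25, adjusted p = 0.944). Of 17 genes of inflammation and NF-kB 2 were higher and 0 lower (median 0.22). IL18 had medians of 145 and 112 CPM (0.55 ± 0.19, adjusted p = 0.401), and IL1RN, the antagonist of interleukin 1, had 66.8 and 66.0 CPM (-0.12 ± 0.21, adjusted p = 0.911). Of 19 genes of the unfolded protein response 1 was higher, and of 28 genes of mitosis and DNA replication 2 were lower, with medians of 0.02 and -0.01.

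Transcripts stored in the oocyte had a median log2 fold change of 0.82 over 15 tested genes. Of these, 14 were positive, beside 52.0% of all genes tested. At an unadjusted p of 0.05, 2 of them were higher and 0 lower. The spread among pools was wide. BTG4, an adaptor for mRNA decay, ranged from 7.83 to 171 CPM in the high pools and from 7.05 to 83.2 CPM in the low pools (0.73 ± 0.52, adjusted p = 0.736). DPPA3, which protects maternal methylation, had medians of 280.1 and 247 CPM (0.15 ± 0.18, adjusted p = 0.866).

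**Figure D4:**
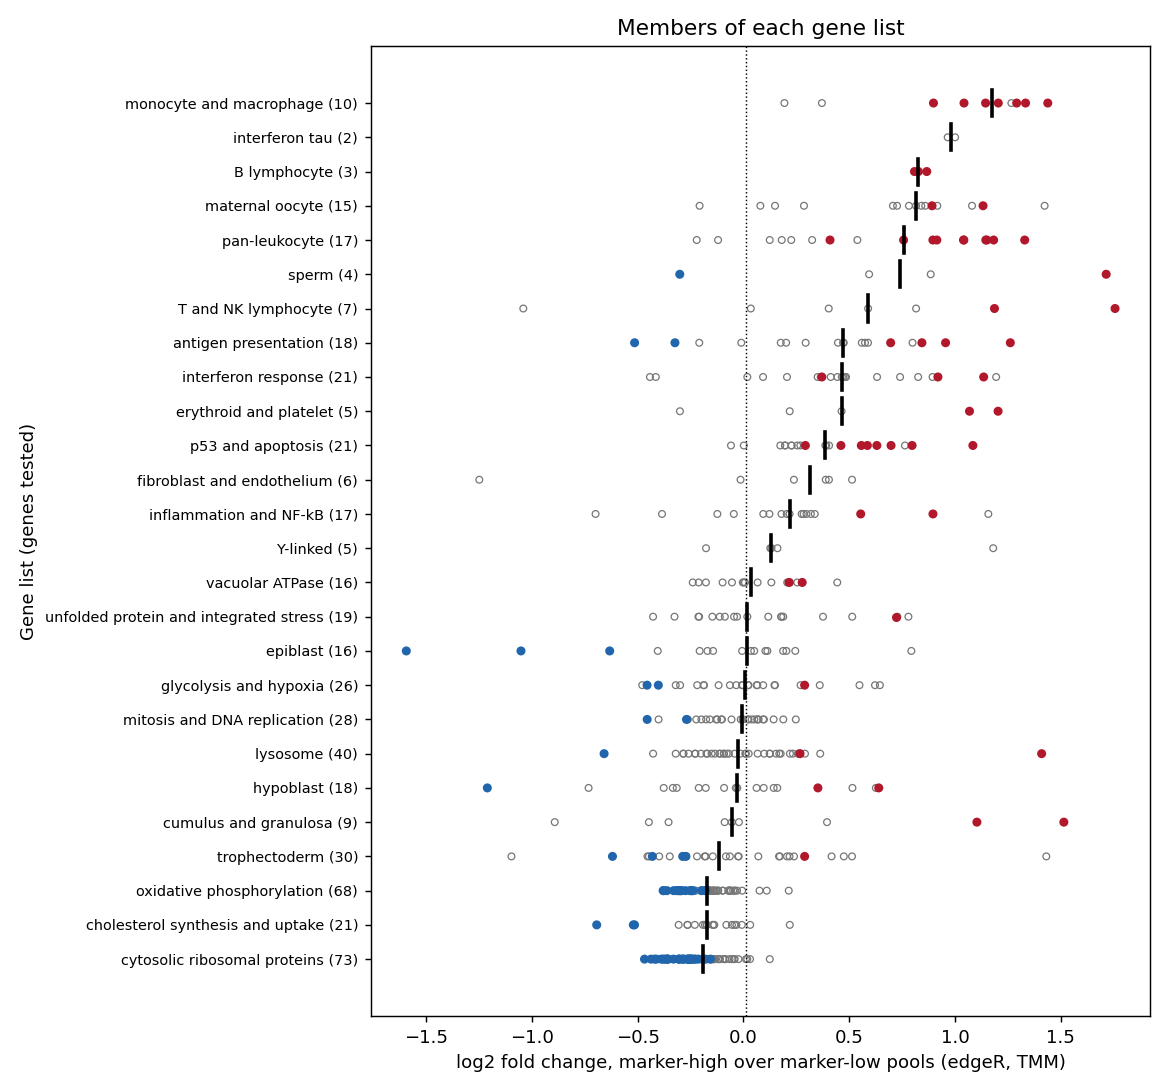
log2 fold change of marker-high over marker-low pools (x axis, edgeR) for each tested member of each gene list (y axis, number tested in brackets), with bars at list medians and a dotted line at the median of all genes tested. Filled points had an unadjusted p of 0.05 or less, and list medians run from 1.18 for monocyte and macrophage genes to -0.19 for ribosomal proteins.

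The 12 genes with symbols and the smallest p among those lower in the high pools were HSPB1, RPLP0, CA4, ORC1, ALKBH7, SLC25A1, CDYL2, ALDH3A2, MRPS24, DNMT3B, ELOB and HDAC1. None passed in the comparison of groups (edgeR adjusted p from 0.113 to 0.191), and each kept a negative log2 fold change under every alternative that gave it a value. DESeq2 called all of them except HDAC1. With total count as a covariate none passed (edgeR adjusted p from 0.216 to 0.281), nor did any without PTPRC in the sum (0.593 to 0.843). None of these 12 genes had groups without overlap, unlike CTSS, S100A12, LCP1, F13A1, LYZ and BOLA among the higher genes.

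HSPB1, a small heat shock protein, ranged from 1061 to 2194 CPM in the high pools (median 1144) and from 1419 to 3085 CPM in the low pools (median 2108), and 6 of 9 high pools were below all low pools (-0.71 ± 0.16, adjusted p = 0.113). The citrate carrier SLC25A1, which moves citrate from mitochondria for lipid synthesis, had medians of 56.6 and 94.9 CPM (-0.69 ± 0.17, adjusted p = 0.159). The fatty aldehyde dehydrogenase ALDH3A2 had medians of 42.9 and 62.3 CPM, with 8 of 9 high pools below all low pools (-0.67 ± 0.17, adjusted p = 0.172). The carbonic anhydrase CA4 was low in most high pools, at 0 to 3.48 CPM, and ranged from 0.431 to 17.8 CPM in the low pools (-2.82 ± 0.67, adjusted p = 0.143).

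Nuclear proteins made up another group. DNMT3B, which adds methyl groups to DNA, ranged from 24.7 to 61.3 CPM in the high pools and from 49.5 to 85.6 CPM in the low pools (-0.63 ± 0.16, adjusted p = 0.182). ORC1, a subunit of the origin recognition complex, had medians of 21.5 and 32.7 CPM (-0.56 ± 0.14, adjusted p = 0.156). CDYL2, a chromodomain protein, had medians of 3.05 and 7.28 CPM (-1.37 ± 0.35, adjusted p = 0.171). The deacetylase HDAC1 had medians of 456 and 543 CPM (-0.31 ± 0.08, adjusted p = 0.191). DNMT3B, SLC25A1, CDYL2 and HSPB1 fell with the marker sum in the continuous model (adjusted p = 0.0212, 0.0298, 0.0298 and 0.0338), beside GATA3, NUP214, FAM216A, NF2 and LOC100140695.

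RPLP0 and MRPS24 belong to the cytosolic and the mitochondrial ribosome, and ELOB is a subunit of elongin and of ubiquitin ligases. RPLP0 had medians of 249.5 and 311 CPM (-0.44 ± 0.10, adjusted p = 0.118), MRPS24 had 157 and 209.8 CPM (-0.41 ± 0.11, adjusted p = 0.172), and ELOB had 260.4 and 379.5 CPM (-0.50 ± 0.13, adjusted p = 0.189). ALKBH7, a mitochondrial dioxygenase, had medians of 59.1 and 77.6 CPM (-0.45 ± 0.11, adjusted p = 0.156).

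**Figure D5:**
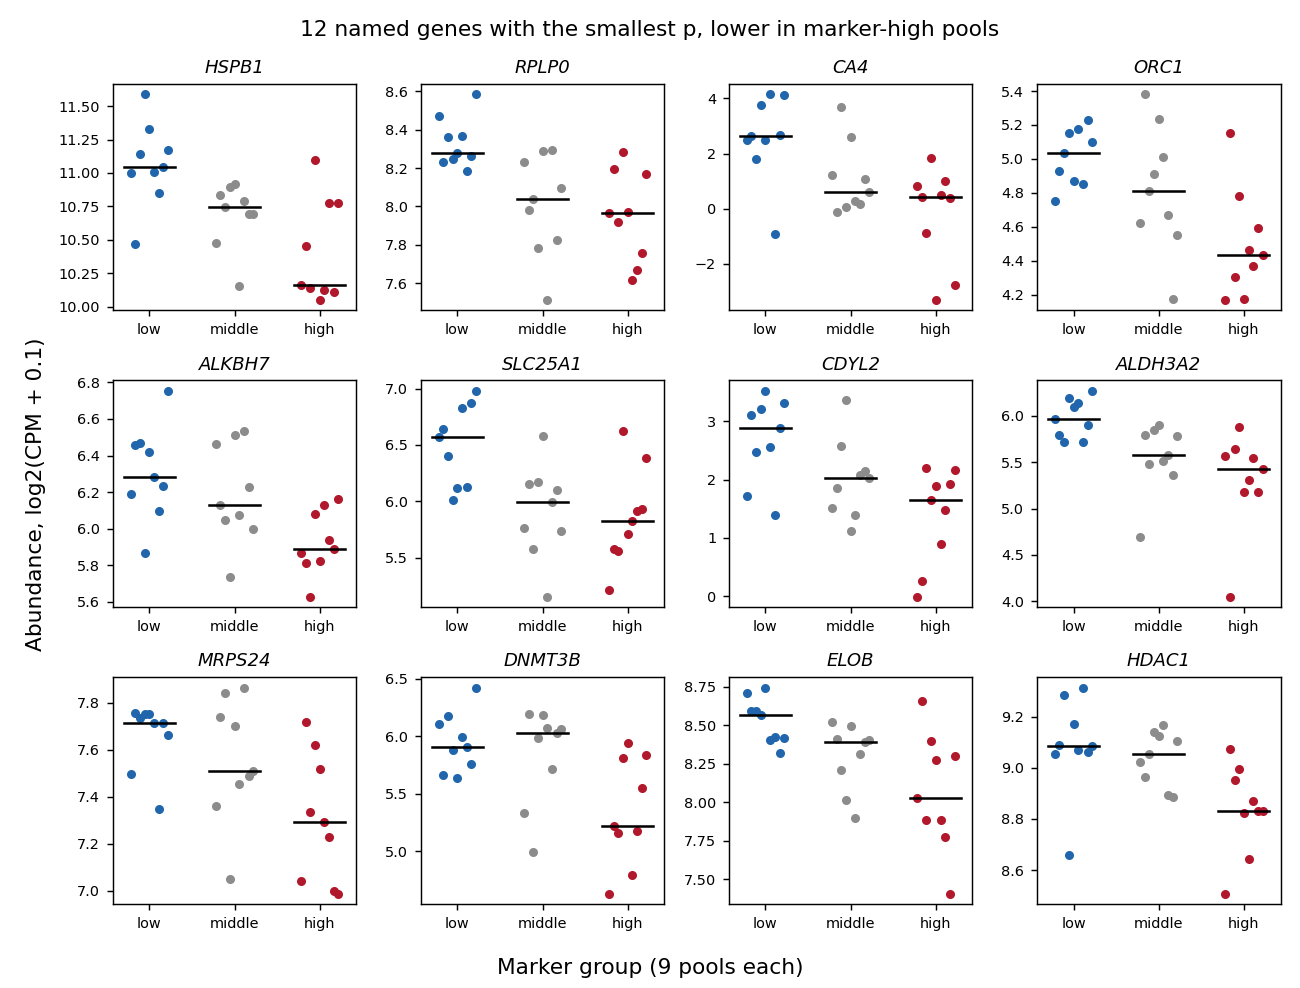
Abundance, as log2(CPM + 0.1) on the y axis, of the 12 named genes with the smallest p among those lower in marker-high pools. Each point is a pool (9 per group on the x axis) and lines are medians, and in every panel at least 1 high pool lies within the range of the low pools.

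Cytosolic ribosomal proteins and oxidative phosphorylation subunits had small differences that ran in the same direction. Of 73 tested ribosomal protein genes 33 were lower and 0 higher at an unadjusted p of 0.05, beside 4.14% and 4.12% of all genes tested. The median log2 fold change of the list was -0.19, and 4 genes were positive, beside 52.0% of all genes tested. RPL8 had medians of 1662 and 1951 CPM in the high and low pools (-0.29 ± 0.10, adjusted p = 0.373), and RPS25 had 1774 and 1842 CPM (-0.14 ± 0.09, adjusted p = 0.697). The summed abundance of the list was between 49172 and 61838 CPM in the high pools and between 55908 and 67368 CPM in the low pools. Of 68 subunits of oxidative phosphorylation 17 were lower and 0 higher (median -0.17), and 3 were positive, beside the same shares of all genes tested. ATP5F1B, the catalytic beta subunit of ATP synthase, had medians of 3068 and 3440 CPM (-0.19 ± 0.14, adjusted p = 0.744). Without a scaling factor the list medians were -0.12 and -0.10, while the median of all genes was 0.07, so the direction did not change. The ribosomal and oxidative phosphorylation medians were closer to 0 under other rankings, at -0.07 and -0.06 in the continuous model, -0.09 and -0.09 with PTPRC alone and -0.03 and -0.04 without CD14 in the sum. Genes within each list move together and are not separate replicates.

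Of 21 genes of cholesterol synthesis and uptake 3 were lower and 0 higher (median -0.17). MSMO1, an enzyme of sterol synthesis, had medians of 1117 and 1176 CPM (-0.14 ± 0.17, adjusted p = 0.870), and HMGCS1 had 803 and 786 CPM (-0.18 ± 0.19, adjusted p = 0.845). Of 26 genes of glycolysis and hypoxia 1 was higher and 2 lower (median 0.01). The glucose transporter SLC2A3 had medians of 1751 and 1384 CPM (0.29 ± 0.11, adjusted p = 0.452), and GAPDH had 1354 and 1391 CPM (-0.19 ± 0.11, adjusted p = 0.688).

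The 9 middle pools had no part in the comparison, and the order of the marker sum among them was set beside each gene as a description. Over all genes tested, 50.9% had a positive rank correlation with the marker sum among these 9 pools and 46.9% a negative one. Of the 100 genes with the smallest p among those higher in the high pools, 79% were positive, and of the 12 named genes 11 were. All 10 monocyte and macrophage genes and all 3 B lymphocyte genes were positive, as were 12 of 17 pan-leukocyte genes and 5 of 7 T and NK lymphocyte genes. Of the 100 genes with the smallest p among those lower, 46% were negative, a share close to that over all genes, and of the 12 named lower genes 4 were negative and 7 positive. Middle pools span a marker sum of 6.82 to 8.81 CPM only, and genes in a pool share its library and depth.

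Over the 26 lists, the largest median log2 fold changes were 1.18 for monocyte and macrophage genes, 0.98 for the 2 tested genes of the interferon tau list, 0.83 for B lymphocyte genes, 0.82 for oocyte genes and 0.76 for pan-leukocyte genes. The interferon tau median was 0.30 without pool 9, and of its genes LOC112441507 lies on chromosome 7 and carries no interferon tau name in RefSeq. Of these lists, those of the oocyte and interferon tau had 2 and 0 genes higher at an unadjusted p of 0.05. Among the 100 genes with the smallest p in each direction, 12 of those higher and 0 of those lower belonged to the 4 leukocyte lists, beside 0.301% of all genes tested.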

How the data were processed

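Total RNA (approximately 250 pg) from each pool of 2 blastocysts was amplified with a SMART-Seq v4 kit (3' DE), which copies the 3' ends of polyadenylated transcripts. The authors used fastp for trimming, STAR for alignment (build ARS-UCD2.0) and featureCounts for counting. Versions were not given in the sources used here. The deposited values were raw counts of 32637 genes in 27 pools, without normalization. Reads carry no molecular identifiers, so intervals and limits cover counting error only. Total counts per pool are given in the report.

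The marker groups were formed from CPM on total counts. The paper's filter (at least 1 CPM in 12 pools) retained 12310 genes, and without the 3 markers among them 12307 were tested. Counts were tested with edgeR 4.0.16 (quasi-likelihood, TMM factors 0.898 to 1.09, Benjamini-Hochberg over all tested genes, no covariates). Fold changes are log2, high over low, ± SE. DESeq2 1.42.0 was an alternative (R 4.3.3). Pool properties were compared by two-sided exact permutation tests (scipy 1.17.1, Python 3.11.15). No 2 pools held the same counts within counting error (chi-square per degree of freedom at least 23.9 over 351 pairs). The procedure was tested on simulated data.

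Named genes were the 12 with the smallest p and a symbol in each direction, and per gene list those called or otherwise the 2 with the highest mean CPM. Others were named after their values were seen. The marker rule, the gene lists and the tests were chosen with earlier results of these data known. Gene positions and synonyms came from RefSeq (ARS-UCD2.0) (12262 of the tested genes matched). A search of promoters for motifs was not run, since no promoter sequences were used here. Alternatives covered normalization, filter, group size, markers in the sum, covariates and each pool left out. PTPRC alone and sums without PTPRC or CD14 were added after seeing the data. The values of 1 B lymphocyte gene are not reported here, although list counts and medians include it.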

Additional observations from a re-analysis of the deposited data

Results flagged for a closer look

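In 172 sets of 9 pools, the highest or lowest pool was compared with the others by the gap to its nearest neighbour divided by the range and set against Dixon's critical value. Of these sets 11 held a pool that stood apart, and chance would give about 1 in 20. Values are in CPM unless stated.

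Among marker genes, CD14 stood apart at 2.231 in low pool 45 and CD68 at 3.618 in low pool 31. Among the other genes, ZAP70 was 140.7 in high pool 35, IFNT3 was 580.1 in high pool 9, RRM2, a subunit of ribonucleotide reductase, was 891.9 in high pool 32 and HDAC1 was 403.8 in low pool 31. ACTA2 was 704.1 in high pool 33 and 435.3 in low pool 28, and ODF2, a sperm tail protein that is also found at centrosomes, was 59.71 in low pool 28. Among pool properties, the log2 Y-linked sum was 0.2158 in low pool 22, and the share of counts from the mitochondrial genome was 7.561% in low pool 15. None of these was given an explanation.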

How the results depend on the processing

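The number of genes called higher depended on how the pools were ranked and on the model. From 1 gene with TMM, it was 13 without a scaling factor, 50 with DESeq2, 53 with the log2 marker sum over 27 pools, 27 with the mean rank of the 5 markers, 4 with 13 against 13 pools, 0 with 6 against 6 pools (369 higher and 363 lower at an unadjusted p of 0.05), 0 with total count as a covariate and 0 at an adjusted p of 0.01. The sum without CD68 gave 2. With rankings added after seeing the data, PTPRC alone gave 38, the sum without CD14 gave 28 and the sum without PTPRC gave 0 (398 higher and 327 lower unadjusted). These 3 groupings shared 8, 8 and 7 of 9 high pools and 5, 5 and 8 of 9 low pools with the main one, and without PTPRC 1 pool moved to the opposite group. Leaving out each pool in turn gave between 0 and 15 genes higher and 0 lower. Genes called lower were 15 with DESeq2, 9 with the continuous marker sum, 1 (DNMT3B) with the mean rank and 0 otherwise. RLE normalization, all genes with a count, a mean of at least 5 CPM and a Y-linked covariate left 1 gene higher and 0 lower. List medians near 0 changed sign under several settings, for example without a scaling factor (lysosome 0.02, hypoblast 0.03, mitosis 0.05), beside a shift of the median of all genes from 0.01 to 0.07. The T and NK median of 0.59 became -0.02 without CD14 in the sum. No called result reversed. No paired analysis was possible because the pool numbers name pools and pair none. Causes of these changes were not tested. Between 54 and 309 marker counts per pool rank the pools, and leukocyte genes near 1 CPM rest on 10.5 to 44.3 counts per pool.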
